A study of Mus musculus with 15 samples.

Results

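A stretch of mouse chromosome 11 carries *Gaa*, *Eif4a3*, *Card14*, *Sgsh*, *Slc26a11*, *Rnf213* and *Nptx1* as near neighbors, and the counts of *Card14*, *Sgsh* and *Slc26a11* were all higher in lymphomas that lack *Casp2*. These 7 genes were chosen by position together with that rise, so their values in the lymphomas are given as a description. Counts were found for 6 of the 7 among 23329 genes, and *Rnf213* was not analysed here. The tumors came from 15 mice, with 1 library of polyadenylated RNA per mouse, made up of lymphomas (4 *EμMyc* and 3 *EμMyc/Casp2-/-*) and neuroblastomas (4 *Th-MYCN* and 4 *Th-MYCN/Casp2-/-*). Lymphomas were cervical lymph node tumors of C57BL/6 mice whose B cells express c-Myc under the enhancer of the immunoglobulin heavy chain. Neuroblastomas were paraspinal thoracic tumors of Sv129/C57BL6 mice, chosen for low vascularization, whose sympathetic neuroblasts express MYCN under the promoter of tyrosine hydroxylase. The *Casp2* deletion is carried by the whole animal, and the tumors of both wild type groups keep *Casp2*. Tumors arose at 13, 13, 13 and 19 weeks in *EμMyc* and at 9, 8 and 12 weeks in *EμMyc/Casp2-/-* mice, and an effect of age on the lymphomas cannot be told apart from one of genotype. Onset was at 21, 13, 10 and 15 weeks in *Th-MYCN* and at 15, 18, 24 and 15 weeks in *Th-MYCN/Casp2-/-* mice. A further *EμMyc/Casp2-/-* tumor that the study set aside is not analysed here.

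*Sgsh* encodes a lysosomal sulfatase that removes sulfate from heparan sulfate, and its loss in humans causes Sanfilippo syndrome. *Slc26a11* encodes a sulfate and chloride transporter of the SLC26 family. *Card14* encodes a scaffold that joins BCL10 and MALT1 to activate NF-κB and is best known from keratinocytes. *Gaa* encodes the lysosomal glucosidase that breaks down glycogen, *Eif4a3* the helicase at the core of the exon junction complex, and *Nptx1* a secreted synaptic pentraxin of neurons. *Rnf213* encodes a large ubiquitin ligase induced by interferon.

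In the coding transcripts of GENCODE (release M21, GRCm38) the genes run from *Gaa* to *Nptx1* over 279867 bases. *Gaa* (chr11:119267887-119285454, forward strand) is followed after 2908 bases by *Eif4a3* (chr11:119288363-119300089, reverse strand), and *Card14* (chr11:119307768-119345375, forward strand) begins 7678 bases further on. *Sgsh* (chr11:119343482-119355536, reverse strand) ends inside *Card14*, so that the pair converge and share 955 bases of exon between chr11:119343895-119345375. Of these bases, 318 are coding in *Card14* and 0 are coding in *Sgsh*, where they belong to the 3′ untranslated region. *Sgsh* and *Slc26a11* (chr11:119355557-119381079, forward strand) lie head to head, with start sites 21 bases apart. *Rnf213* begins 12020 bases beyond *Slc26a11*. *Endov*, a nuclease gene counted under its older name *A730011L01Rik*, lies between *Rnf213* and *Nptx1*.

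A single RefSeq window of 300 bases (GRCm38.p6) at the start of *Sgsh* covers the start sites of both *Sgsh* and *Slc26a11*. It is shown because the counts of both genes were higher in the same lymphomas. Capitals mark CACGTG, the E-box core bound by Myc and related factors, which was searched in all such windows (the motif is its own reverse complement, so both strands are covered). The window lies at chr11:119355461-119355760 on the reverse strand, and the motif at chr11:119355534-119355539 begins 29 bases before the *Sgsh* start of RefSeq (base 119355510) and spans that of GENCODE.
Sgsh: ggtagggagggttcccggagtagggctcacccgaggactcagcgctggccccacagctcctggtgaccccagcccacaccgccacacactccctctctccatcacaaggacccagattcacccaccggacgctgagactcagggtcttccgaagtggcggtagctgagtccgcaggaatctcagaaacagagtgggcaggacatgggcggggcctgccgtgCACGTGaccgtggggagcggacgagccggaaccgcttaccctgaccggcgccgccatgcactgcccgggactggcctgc
Promoter windows were at hand for 4 of the 7 genes. *Gaa* also held 1 match, at chr11:119267823-119267828 on the forward strand, shown with its flanks.
Gaa: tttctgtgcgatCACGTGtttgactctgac
No match was found in the windows of *Eif4a3*, *Rnf213* or *Endov*. Of 32851 windows over all genes, 7.15% held the motif. A match describes the letters in the window and is no evidence of binding.

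Levels and tests used the reads that STAR counts for the second strand, of which a library had 4940464 to 17638029. Levels are given as CPM, the usual unit of counts relative to library size, here with sizes scaled by the TMM method. Before that scaling 3 reads correspond to 0.170 to 0.607 CPM. The smallest library was that of EuMycC2ko215, an *EμMyc/Casp2-/-* tumor, which also had 11.2% unmapped reads against 2.26% to 3.89% in the other tumors. It stood apart in its T cell genes as well. The summed level of 11 T cell markers was 1928 CPM in EuMycC2ko215, 342 and 220 CPM in the other *EμMyc/Casp2-/-* tumors and 135 to 228 CPM in *EμMyc* tumors, and the lymphoma results that the text turns on are therefore also given without it. The 10 B cell markers summed to 2115 to 5270 CPM in lymphomas and 15.2 to 29.2 CPM in neuroblastomas, the 10 sympathoadrenal markers to 6.46 to 22.8 and 2652 to 5111 CPM, as the tissues' labels say. *Casp2* itself had 125 to 203 CPM in *EμMyc* and 51.9 to 76.1 CPM in *EμMyc/Casp2-/-* tumors, and 76.0 to 125 CPM in *Th-MYCN* and 39.6 to 80.1 CPM in *Th-MYCN/Casp2-/-* tumors. Counts per gene do not show which *Casp2* exons the remaining reads cover.

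*Sgsh* had a higher level in *EμMyc/Casp2-/-* than in *EμMyc* lymphomas in the second strand column and also in reads that fall on no other gene. In the 4 *EμMyc* tumors it had 3.85, 8.12, 8.10 and 6.15 CPM, and in the 3 *EμMyc/Casp2-/-* tumors 23.6, 19.9 and 11.2 CPM. All tumors without *Casp2* lay above all *EμMyc* tumors. The means were 6.56 ± 2.03 (SD, n = 4) and 18.2 ± 6.38 CPM (SD, n = 3), and the log2 fold change was 1.47 (standard error 0.39). Without EuMycC2ko215 it was 1.26.

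*Slc26a11*, whose start site neighbors that of *Sgsh*, was higher in the same tumors. It had 3.76, 4.02, 4.56 and 2.55 CPM in *EμMyc* and 16.6, 11.7 and 7.16 CPM in *EμMyc/Casp2-/-* lymphomas, again with no overlap. The means were 3.72 ± 0.852 (SD, n = 4) and 11.8 ± 4.72 CPM (SD, n = 3), and the log2 fold change was 1.65 (standard error 0.40), or 1.35 without EuMycC2ko215.

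*Card14* gave the steepest values of the 3 genes in this column. It had 1.22, 1.88, 1.57 and 2.12 CPM in *EμMyc* and 12.1, 6.01 and 3.73 CPM in *EμMyc/Casp2-/-* lymphomas. The means were 1.70 ± 0.389 (SD, n = 4) and 7.28 ± 4.33 CPM (SD, n = 3), and the log2 fold change of 2.07 (standard error 0.51) was 1.54 without EuMycC2ko215. These CPM stand for 14 to 22 reads per *EμMyc* tumor and 37 to 72 per *EμMyc/Casp2-/-* tumor, and nearly all of them lie in exon that *Card14* shares with *Sgsh*, as set out below for each column of counts.

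For all 3 genes EuMycC2ko215 was the highest tumor and EuMycC2ko245 the lowest of the *EμMyc/Casp2-/-* group in CPM. The summed levels of 5 of 13 gene lists had the same order, among them those of the T cell markers and of 14 interferon-inducible genes, a class that includes *Rnf213*. The order was taken from the values of the 3 genes themselves, and 3 tumors allow few orders, so a match is a description only. The interferon-inducible genes summed to 478, 390 and 231 CPM in the *EμMyc/Casp2-/-* tumors and to 152 to 208 CPM in *EμMyc* tumors. Myeloid markers (1727, 1125 and 331 CPM, against 593 to 1201 CPM in *EμMyc*), lysosomal genes other than sulfatases (1611, 1343 and 1050 CPM, against 1123 to 1447 CPM) and sympathoadrenal markers (22.8, 10.51 and 6.46 CPM, against 7.79 to 22.1 CPM) were the others in this order. The part of these cells and genes in the rise was not tested, and in whole tumors a change in the share of a cell type and a change in RNA per cell cannot be told apart. Markers of keratinocytes, the cells in which *Card14* is best known, summed to 67.7 CPM over 8 genes in EuMycC2ko215 and to 5.90 to 16.8 CPM in the other lymphomas. In that tumor *Card14* had 0 reads outside the exon it shares with *Sgsh*.

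**Figure D1:**
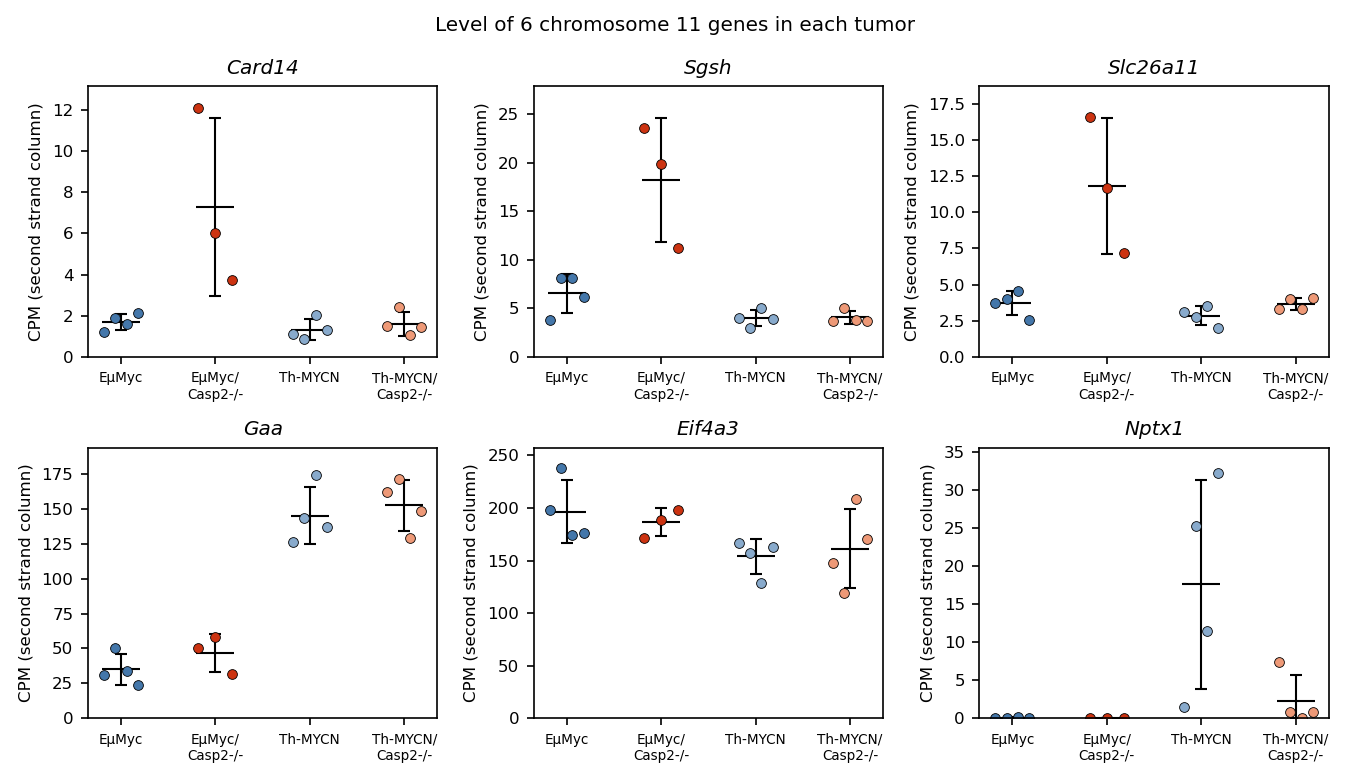
Level of 6 neighboring chromosome 11 genes in each tumor, in CPM of the second strand column (vertical axes from 0, a separate scale for each gene). Points are tumors, horizontal bars are group means and error bars are SD, ended at 0 where they would pass it. For *Card14*, *Sgsh* and *Slc26a11* the 3 *EμMyc/Casp2-/-* tumors lie above all other tumors, while *Gaa* is higher in all neuroblastomas than in all lymphomas.

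Over all 14880 genes that passed the low-count filter, 170 (1.14%) were called higher and 45 (0.302%) lower in *EμMyc/Casp2-/-* than in *EμMyc* tumors by edgeR's likelihood ratio test (LRT), where a call needed both a false discovery rate (FDR) under 0.05 and more than a 2-fold change. Groups did not overlap for 1.75% of genes that were higher and 1.96% that were lower in *EμMyc/Casp2-/-* tumors. An unadjusted p under 0.05 by the LRT, in either direction, was found for 1471 of the 14880 genes in the lymphomas and for 1157 in the neuroblastomas. The 3 genes are among both the higher calls and the genes without overlap, as the way they were chosen requires. Without EuMycC2ko215, when 57 genes were called higher, none of the 3 met the definition of a call by the LRT or QLF. edgeR's quasi-likelihood test (QLF) called 21 genes in all, and none of the 6 neighbors with counts.

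The neighbors on the *Gaa* side did not share the rise in size. On the *Slc26a11* side the next gene, *Rnf213*, was not analysed. The nearest fitted gene there was *Endov*, with its start 136 kb from that of *Sgsh*, so the near extent on that side is not known. *Gaa* had 31.0, 50.7, 33.9 and 24.2 CPM in *EμMyc* and 50.6, 58.3 and 31.5 CPM in *EμMyc/Casp2-/-* lymphomas, and the groups overlapped. Its log2 fold change was 0.42 (standard error 0.27), and 0.38 without EuMycC2ko215. *Eif4a3*, which lies between *Gaa* and *Card14*, had 175 to 238 CPM in *EμMyc* and 172 to 198 CPM in *EμMyc/Casp2-/-* tumors, with a log2 fold change of -0.08 (standard error 0.21), and -0.01 without EuMycC2ko215. *Nptx1*, at the other end, had 0 to 3 reads per lymphoma in the second strand column, so no fold is given. *Endov*, which was not among the chosen genes and could be tested, had 21.6 ± 5.25 (SD, n = 4) and 32.4 ± 6.69 CPM (SD, n = 3) and was not called (log2 fold change 0.58, LRT FDR 0.440, QLF FDR 0.532; 0.42 and LRT FDR 1 without EuMycC2ko215).

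The extent of the rise was then followed over all genes of the table placed from 1 Mb before *Gaa* to 1 Mb after *Nptx1*. Besides the chosen genes, 38 of 45 genes in this window passed the filter. The LRT called 0 of them higher and 0 lower in *EμMyc/Casp2-/-* lymphomas. At an unadjusted p under 0.05 there were 2 higher and 1 lower, and both QLF and DESeq2 called 0. Their median log2 fold change was 0.05, against -0.03 for all genes, and their values ran from -2.04 to 1.24. No gene of the window other than the 3 had *EμMyc/Casp2-/-* tumors all above the *EμMyc* tumors. *Aatk*, named here after its values were seen, had them all below, at 1.44 against 5.77 CPM on average (log2 fold change -2.01, standard error 0.64, LRT FDR 0.103). Relative to the *EμMyc* mean, the median log2 difference of the 38 genes was 0.30 in EuMycC2ko215, -0.03 in EuMycC2ko239 and -0.05 in EuMycC2ko245. For *Slc26a11* the difference on this scale was 2.14, 1.64 and 0.94 in those tumors.

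**Figure D2:**
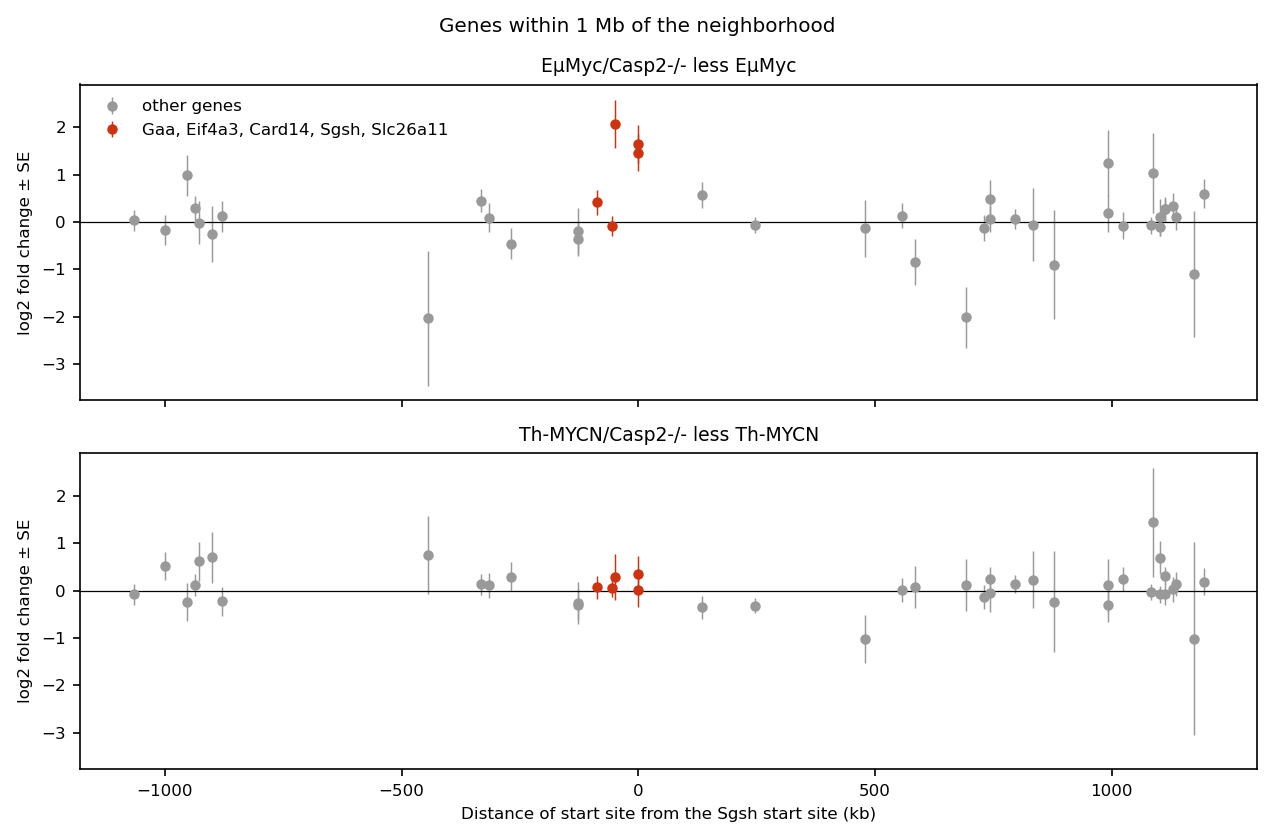
Log2 fold change between genotypes (vertical axis, error bars are standard errors) of genes within 1 Mb of the neighborhood against the distance of their start site from that of *Sgsh* in kb, in lymphomas above and neuroblastomas below. The points of *Card14*, *Sgsh* and *Slc26a11* reach 1.47 to 2.07 in the lymphomas, whereas the other fitted genes of the window lie between -2.04 and 1.24. *Nptx1* is left out, with at most 3 reads per lymphoma.

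The rise also had to be read against how the counts were made, because STAR, the aligner, counts a read for each gene by 3 rules. Column 2 takes reads of either strand and leaves out those that overlap more than 1 gene, whereas columns 3 and 4, the first and second strand columns, count each strand alone. In these libraries the strand columns divided the reads nearly evenly. A median of 50.5% of a gene's reads stood in column 3 (5th to 95th percentile 46.8 to 54.5), and the share was 48.8% for *Card14* (95% exact binomial interval 45.3 to 52.3, counting error only), 50.0% for *Sgsh* (48.0 to 52.0) and 50.7% for *Slc26a11* (48.3 to 53.1). Reads of the genes on opposite strands are therefore not told apart by the strand columns. The number of reads that columns 3 and 4 hold together beyond column 2 is the number that column 2 leaves out as shared with another gene.

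For *Card14* this number was 795 of 822 reads over the 15 tumors (96.7%). The same number, 795, was shared for *Sgsh*, where it was 32.0% of 2487 reads, and the pair had the same shared number in 15 of 15 tumors, from 22 to 128 per tumor. *Slc26a11*, *Gaa*, *Eif4a3*, *Nptx1* and *Endov* had 0 shared reads. Over all genes that passed the filter, 146 had more than 90% of their reads shared, and 2 of the 170 genes called higher in *EμMyc/Casp2-/-* lymphomas did, *Card14* among them.

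In column 2, where only reads on *Card14* alone count, it had 1, 2, 1 and 0 reads in *EμMyc* tumors and 0, 2 and 0 reads in *EμMyc/Casp2-/-* tumors. No tumor reached 1 CPM in this column, so *Card14* was not fitted. Read density, in column 2 CPM per kb of exon, was 0.0134 over unshared *Card14* exon in *EμMyc* (95% exact Poisson interval 0.00365 to 0.0343, counting error only) and 0.0117 in *EμMyc/Casp2-/-* tumors (0.00141 to 0.0421). A difference in this part of *Card14* was not detectable at this depth. In the 3 *EμMyc/Casp2-/-* tumors together, unshared *Card14* exon (3.251 kb) held 2 reads. The exon shared with *Sgsh* (0.955 kb) held 315 reads, and unshared *Sgsh* exon (3.402 kb) held 634. Counts per gene do not assign a shared read to *Card14* or *Sgsh*, and the source of the shared reads was not tested.

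The exon shared by both genes behaved like the rest of *Sgsh* in direction. Its density, with both strands counted and scaled to the same totals, was 1.37, 2.16, 1.995 and 2.15 CPM per kb in *EμMyc* and 12.2, 5.68 and 3.91 in *EμMyc/Casp2-/-* tumors. Exon of *Sgsh* alone had 0.633, 1.68, 1.59 and 1.16 in *EμMyc* and 4.30, 4.32 and 2.18 in *EμMyc/Casp2-/-* tumors, without overlap. The shared exon, at the 3′ end of *Sgsh*, was denser than the rest of *Sgsh* in 15 of 15 tumors, by 1.25 to 2.84 times, and the highest ratio was that of EuMycC2ko215. In the same unit *Slc26a11* had 1.30, 1.58, 1.65 and 1.00 in *EμMyc* and 7.05, 3.87 and 2.98 in *EμMyc/Casp2-/-* tumors. Over the pooled *Th-MYCN* and *Th-MYCN/Casp2-/-* reads the densities were 1.32 and 1.52 for the shared exon, 0.845 and 0.817 for *Sgsh* alone and 1.15 and 1.33 for *Slc26a11*.

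**Figure D3:**
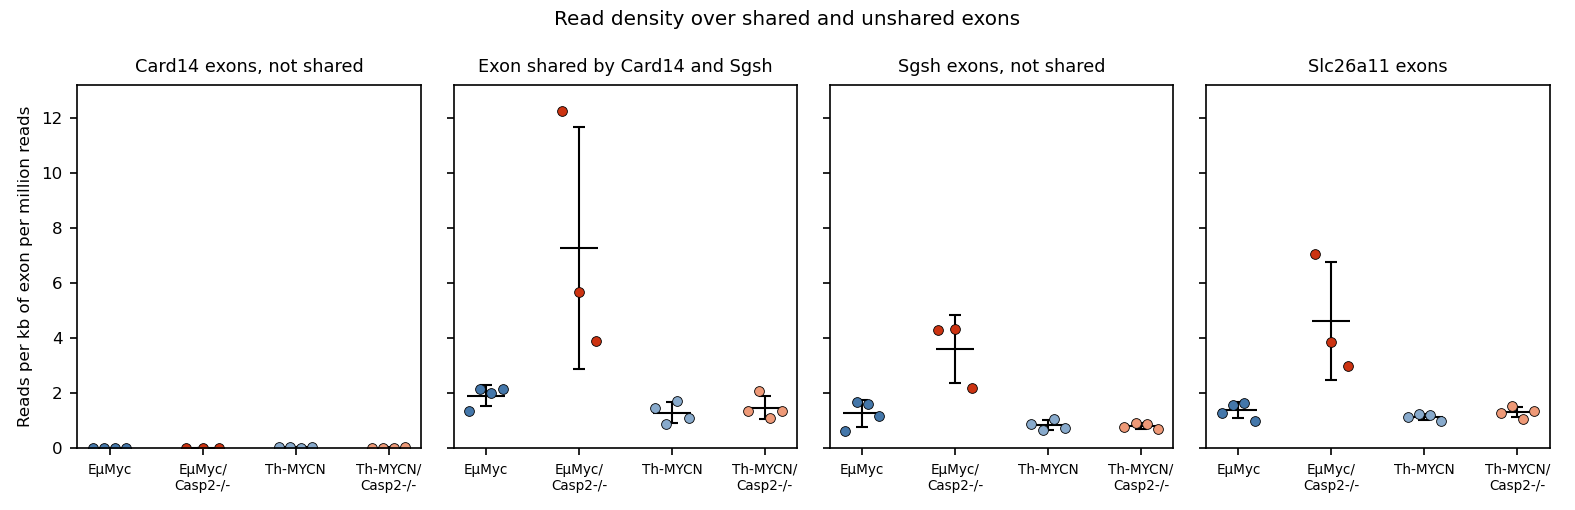
Read density in CPM per kb of exon, scaled to the column 2 total (vertical axis, 1 scale from 0 for all panels) over *Card14* exon not shared, exon shared by *Card14* and *Sgsh*, *Sgsh* exon not shared and *Slc26a11* exon. Points are tumors, bars are means and error bars are SD, ended at 0. Unshared *Card14* exon stays at or below 0.0603 in every tumor, while the shared exon reaches 12.2 and unshared *Sgsh* exon 4.32 in *EμMyc/Casp2-/-* lymphomas.

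*Sgsh* and *Slc26a11* kept their difference in each column. In column 2 the log2 fold change between lymphomas was 1.45 (standard error 0.42) for *Sgsh* and 1.66 (standard error 0.38) for *Slc26a11*, and in column 3 it was 1.70 and 1.67. *Card14* had 1.55 (standard error 0.46) in column 3. Without EuMycC2ko215 the values were 1.33 and 1.27 for *Sgsh* and *Slc26a11* in column 2 and 1.38, 1.18 and 1.01 for *Sgsh*, *Slc26a11* and *Card14* in column 3. In column 2 *Sgsh* had 51, 133, 142 and 73 reads in *EμMyc* and 144, 347 and 143 reads in *EμMyc/Casp2-/-* tumors, which at the depth of these libraries came to 4.35 ± 1.63 CPM (SD, n = 4) and 11.9 ± 4.00 CPM (SD, n = 3). *Slc26a11* had 83, 99, 117 and 50 reads and 187, 246 and 155 reads, or 3.79 ± 0.841 and 12.1 ± 5.43 CPM.

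**Figure D4:**
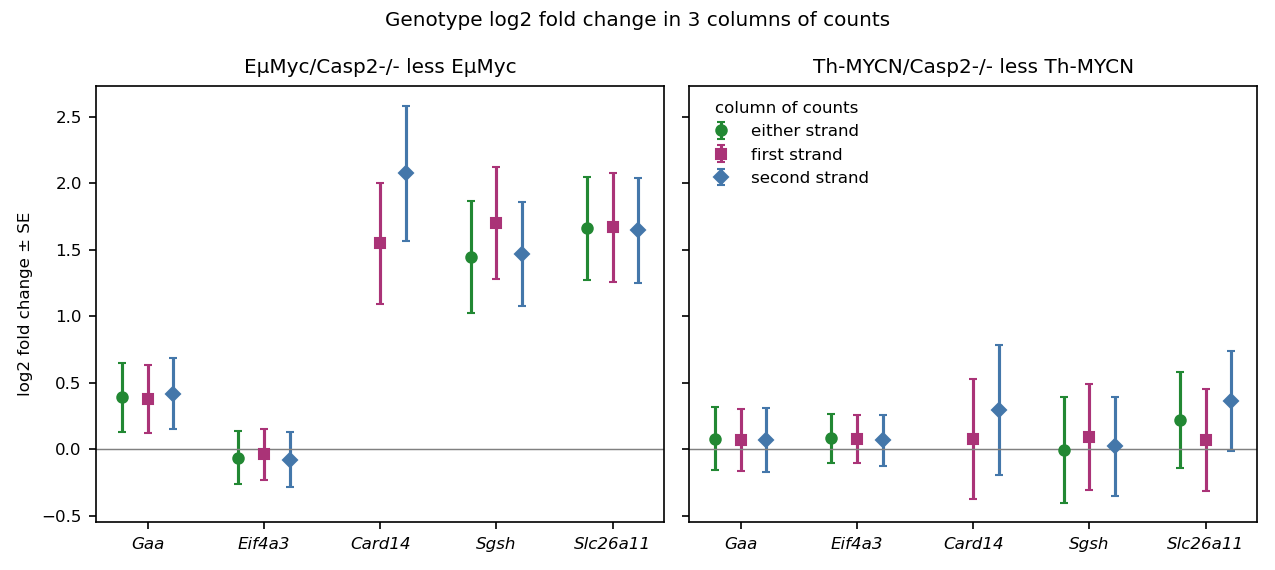
Log2 fold change between genotypes (vertical axis, error bars are standard errors) of 5 genes in the 3 columns of counts, in lymphomas on the left and neuroblastomas on the right. *Sgsh* and *Slc26a11* stand at 1.45 to 1.70 in all columns in the lymphomas, and *Card14* has no value in column 2, where no tumor reached 1 CPM.

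In the neuroblastomas, which played no part in the choice of the genes, none of the 6 genes with counts was called by genotype with the LRT, QLF or DESeq2. Of all genes 0.188% were called higher and 0.625% lower here. *Sgsh* had 4.03, 2.98, 5.02 and 3.95 CPM in *Th-MYCN* and 3.67, 5.07, 3.76 and 3.73 CPM in *Th-MYCN/Casp2-/-* tumors. The log2 fold change was 0.02 with a 95% interval of -0.71 to 0.76 (LRT FDR 1, QLF FDR 1). In column 2, without shared reads, its log2 fold change was -0.00 (standard error 0.40). *Slc26a11* had 3.11, 2.76, 3.52 and 1.97 CPM and 3.31, 3.98, 3.28 and 4.06 CPM, a log2 fold change of 0.36 (95% interval -0.37 to 1.10, LRT FDR 1, QLF FDR 0.981). *Card14* had 1.32 ± 0.496 and 1.62 ± 0.584 CPM (SD, n = 4 per group), with a log2 fold change of 0.30 (95% interval -0.66 to 1.25, LRT FDR 1, QLF FDR 0.999), and 93.0% and 94.4% of its reads in these groups were shared with *Sgsh*. The difference between the log2 fold changes of lymphomas and neuroblastomas was 1.45 for *Sgsh*, 1.28 for *Slc26a11* and 1.78 for *Card14*, values that rest on the lymphomas used in the choice and carry no test.

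*Gaa* averaged 145 ± 20.5 CPM with *Casp2* and 153 ± 18.3 CPM without it in the neuroblastomas (SD, n = 4 per group), and its log2 fold change was 0.07 (95% interval -0.40 to 0.55). *Eif4a3* had 129 to 166 and 119 to 208 CPM, a log2 fold change of 0.07 (95% interval -0.31 to 0.45). *Nptx1* was the most variable of the neighbors. It had 1.53, 25.2, 11.5 and 32.2 CPM in *Th-MYCN* and 7.34, 0.770, 0 and 0.812 CPM in *Th-MYCN/Casp2-/-* tumors, so that the groups overlapped. It did not pass (log2 fold change -2.97, standard error 1.16, LRT FDR 0.398, QLF FDR 0.594). Without MYCNC2ko118, the *Th-MYCN/Casp2-/-* tumor with 7.34 CPM, the log2 fold change was -5.01 (LRT FDR 0.0298), but *Nptx1* then passed the filter only through *Th-MYCN* tumors, the group where it is high, so a difference in this direction was built in. For all 6 genes the genotypes overlapped, against 2.94% of all genes with *Th-MYCN/Casp2-/-* tumors all higher and 3.68% all lower. Of the 38 other genes of the window the LRT, QLF and DESeq2 called 0 here, with 1 higher and 2 lower at an unadjusted p under 0.05.

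Between wild type tumors, *Gaa* was lower in *EμMyc* lymphomas (35.0 ± 11.3 CPM) than in *Th-MYCN* neuroblastomas (log2 fold change -2.05, standard error 0.24, LRT FDR 3.09e-15, QLF FDR 2.26e-06), with no overlap. *Nptx1* had 0 to 3 reads per *EμMyc* tumor and 25 to 522 per *Th-MYCN* tumor without overlap. It passed the filter through 5 neuroblastomas only, so a difference in this direction was built in and no test is given. *Eif4a3* was higher in every *EμMyc* than in every *Th-MYCN* tumor, but its log2 fold change of 0.35 was not called (LRT FDR 0.100, QLF FDR 0.0897). *Endov* was called lower in the lymphomas (log2 fold change -1.67, LRT FDR 5.71e-10, QLF FDR 2.09e-05). Of all genes 18.9% were called higher and 28.5% lower in *EμMyc* tumors, and 26.4% and 32.9% did not overlap in these directions.

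For *Sgsh*, *Slc26a11* and *Card14* the *EμMyc* tumors took part in the choice of the genes, so their values between tumor types carry no test. In wild type tumors the log2 fold changes of lymphomas over neuroblastomas were 0.71, 0.39 and 0.35 (standard errors 0.37, 0.38 and 0.49), and the groups overlapped for each. In tumors without *Casp2* they were 2.16, 1.67 and 2.13, where 20.5% of all genes were called higher and 27.6% lower. Per kb of exon the order of the mean levels in *EμMyc* tumors was *Eif4a3* (130 CPM per kb), *Gaa* (7.60), *Sgsh* (1.505), *Slc26a11* (1.38), *Card14* (0.404) and *Nptx1* (0.0155). The *Card14* value and its place rest on reads shared with *Sgsh*, which were 97.7% of its reads in these tumors. Over unshared *Card14* exon the density in column 2 was 0.0134. *Sgsh* and *Slc26a11* did not differ beyond their spread in this order, with SDs of 0.466 and 0.316. In *EμMyc/Casp2-/-* tumors they had 4.19 and 4.38 CPM per kb.

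Functional partners of the neighbors, taken from gene lists, held few calls. In the lymphomas the median log2 fold change of 13 other genes of heparan sulfate breakdown and lysosomal sulfatases was 0.03, against -0.03 for all genes. Of these 13, 1 was called higher and 0 lower in *EμMyc/Casp2-/-* lymphomas, against 1.14% and 0.302% of all genes. That gene was *Arsb*, a lysosomal sulfatase that acts on dermatan and chondroitin sulfate, which rose from 18.8 ± 5.76 (SD, n = 4) to 39.6 ± 6.52 CPM (SD, n = 3; log2 fold change 1.07, LRT FDR 0.0300, QLF FDR 0.169). Without EuMycC2ko215 it was not called (log2 fold change 1.14, LRT FDR 0.102). *Naglu*, which acts in the same pathway as *Sgsh*, had 27.1 to 36.0 and 32.9 to 43.3 CPM. In the neuroblastomas 0 of the 13 were called by the LRT, QLF or DESeq2, with 1 higher at an unadjusted p under 0.05.

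Of 17 other lysosomal genes 0 were called in the lymphomas by the LRT, QLF or DESeq2, with 0 at an unadjusted p under 0.05 and a median log2 fold change of -0.07. In the neuroblastomas 0 were called higher and 1 lower, against 0.188% and 0.625% of all genes. The 1 called was *Mitf*, a transcription factor of the family that controls lysosomal genes (log2 fold change -2.13, LRT FDR 0.0413, QLF FDR 0.257). Among 14 partners of *Card14* in CARD, BCL10 and MALT1 signaling, the LRT, QLF and DESeq2 called 0 in the lymphomas and 0 had an unadjusted p under 0.05 (median log2 fold change 0.01).

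The other lists held no calls by the LRT, QLF or DESeq2 in either tumor type. They were 5 fitted SLC26 transporters, 14 genes of the exon junction complex and nonsense-mediated decay, 2 neuronal pentraxins and 14 interferon-inducible genes. Their median log2 fold changes in the lymphomas were 0.34, -0.09, 0.91 and 1.29. The 2 pentraxins had at most 1.17 CPM in any lymphoma, too low for a fold to be read, and their median was -1.74 without EuMycC2ko215. *Slc26a4* had 0 CPM in all lymphomas and entered the SLC26 median as 0. At an unadjusted p under 0.05 the lists had, in the same order, 0, 0, 1 and 7 higher genes there and 0 lower, against 1471 of 14880 genes in either direction. Without EuMycC2ko215 the interferon-inducible list had 2 higher and 0 lower, with a median log2 fold change of 1.13. In the neuroblastomas the lists had 0 higher genes each and 0, 0, 1 and 1 lower at an unadjusted p under 0.05.

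Of 11 T cell markers 5 were called higher and 0 lower in *EμMyc/Casp2-/-* lymphomas by the LRT, against 1.14% higher over all genes, while DESeq2 called 2 and QLF 0, with 10 higher at an unadjusted p under 0.05. Without EuMycC2ko215 the LRT and DESeq2 each called 1, and QLF 0, with 1 higher at an unadjusted p under 0.05. The 1 called by the LRT was *Zap70*. *Zap70*, a kinase of the T cell receptor, had 4.14 to 28.1 CPM in *EμMyc* and 66.4 to 74.3 CPM in *EμMyc/Casp2-/-* tumors (LRT FDR 0.000984, QLF FDR 0.0554; LRT FDR 0.00706 without EuMycC2ko215). *Cd3e*, a defining T cell gene, had 0 to 2.33 and 4.34 to 51.9 CPM (LRT FDR 0.0871). *Csf1r* of macrophages stood at 26.4 to 52.0 and 23.8 to 79.2 CPM and *Col1a1* of stroma at 98.5 to 397 and 98.3 to 225 CPM. *Th* of neuroblasts had at most 3.32 CPM and *Krt14* of keratinocytes at most 3.51 CPM in any lymphoma, and *Krt14* was at 0 in some. Among the sympathoadrenal markers *Gata3*, which T cells also express, was called higher (LRT FDR 0.00296, QLF FDR 0.223), with 0 to 0.598 CPM in *EμMyc* and 0.404 to 10.2 CPM in *EμMyc/Casp2-/-* tumors, but not without EuMycC2ko215 (LRT FDR 0.864). The B cell, myeloid, stromal and keratinocyte lists held 0 calls in the lymphomas by the LRT, QLF or DESeq2, with 1, 0, 0 and 1 higher and 0 lower genes at an unadjusted p under 0.05. In the neuroblastomas 3 of 10 stromal and endothelial markers were called lower by the LRT, against 0.625% lower over all genes. They were *Pecam1*, *Kdr* and *Acta2* (log2 fold changes -1.20, -1.46 and -1.97, LRT FDR 0.000552, 0.0308 and 0.0402, QLF FDR 0.0812, 0.220 and 0.270). The T cell, B cell, myeloid, sympathoadrenal and keratinocyte lists held 0 calls there by the LRT, QLF or DESeq2, with 0, 1, 0, 1 and 0 higher and 0, 0, 0, 3 and 0 lower genes at an unadjusted p under 0.05.

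Over the 7 lymphomas the log2 levels of the 3 genes rose and fell together, with Pearson's r of 0.94 between *Card14* and *Sgsh*, which share reads, 0.92 between *Sgsh* and *Slc26a11* and 0.91 between *Card14* and *Slc26a11*. Over the 6 lymphomas without EuMycC2ko215 these values were 0.92, 0.86 and 0.83. In column 2, which holds no shared reads, r was 0.87 between *Sgsh* and *Slc26a11* (0.84 over the 6). These values describe 7 tumors of 2 groups that differ in these genes. They were not the highest in the table. Outside the window the closest patterns to *Sgsh* were those of *Enpp3* (0.99), *Tnfrsf25* (0.98) and *6030429G01Rik* (0.97). The closest to *Slc26a11* were *Itgae* (0.98), *Art4* (0.97) and *Zfp831* (0.97), and to *Card14* they were *Cyp2s1* (0.99), *Dtx3* (0.98) and *Irf9* (0.97). For *Sgsh*, *Slc26a11* was in place 34 of all genes by this measure.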

How the data were processed

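Messenger RNA was sequenced from 15 mouse tumors. Per the labels and the study's methods, the authors selected polyadenylated RNA, read 50 bases from a single end, checked the reads with FastQC, aligned them with STAR to mm10/GRCm38 and deposited unnormalized counts of reads per gene. Tool versions and the release of the gene annotation are not given in the sources used here. Each library has 3 columns of counts for 23329 genes, and the column of the second strand served here, as in the study's methods. Reads that fell on no gene (66.4% to 71.8% of all reads by this column) stayed out of library sizes and tests.

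Analysis used edgeR 4.0.16 and DESeq2 1.42.0 in R 4.3.3. A filter of more than 1 CPM in 3 or more tumors left 14880 genes. Sizes were scaled by TMM, all tumors entered a single negative binomial fit of the 4 group means, and contrasts were tested by the likelihood ratio test with Benjamini-Hochberg adjustment over all genes. A gene was called at an FDR below 0.05 with a log2 fold change beyond 1 in either direction. Standard errors come from the same fit, and correlations used log2 CPM with a prior count of 2. The scripts were tested on simulated data. Labels state that tumors came from different mice.

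The neighboring genes, gene lists and tests were chosen with earlier results of these data known. Named genes are the 7 neighbors, genes that overlap them or lie between them, called genes of the window and lists (at most 8 and 3), defining markers, *Casp2*, and for *Card14*, *Sgsh* and *Slc26a11* the 3 genes outside the window with the closest pattern. Positions of the window came from RefSeq GRCm38.p6 by symbol (98.9% of genes placed), and exons and distances from GENCODE. Some members of the gene lists are not reported here. The authors' annotation may place exons differently. Alternatives were other tests, count columns, scalings, filters, samples and windows.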

Additional observations from a re-analysis of the deposited data

Results flagged for a closer look

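Values in each group of 4 tumors were checked for a tumor far from the others by Dixon's test at its 95% critical value, over 7 genes and 3 groups, or 21 sets of values. Chance flags about 1 in 20 sets. In *Th-MYCN/Casp2-/-* tumors, MYCNC2ko144 stood apart for *Sgsh* with 5.07 CPM, against 3.67 to 3.76 CPM in the other tumors. In the same group MYCNC2ko118 stood apart for *Nptx1* with 7.34 CPM, against 0 to 0.812 CPM.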

How the results depend on the processing

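No paired analysis was possible because the replicate numbers only name the tumors. The number of genes called between lymphomas fell from 215 to 21 with the quasi-likelihood test and to 35 with only the 2 groups compared in the fit, and ran from 75, without EuMycC2ko215, to 546, without EuMycC2ko245, when 1 tumor was left out (349 without EuMycC2ko239). That between neuroblastomas went from 121 to 5 and 277 under the same 2 settings and from 30, without MYCN391, to 187, without MYCN175, with 1 tumor left out (42 without MYCN235, 53 without MYCNC2ko118, 45 without MYCNC2ko144 and 75 without MYCNC2ko176). The cause was not tested. Genes of the window called in the lymphomas went from 0 to at most 1 with a tumor left out. The gene was *Aatk*, lower, in 3 such fits, and *Lgals3bp*, higher, without EuMycC2ko245 (log2 fold change 1.44, FDR 0.000201), both named after their values were seen. *Card14* moved from a log2 fold change of 2.07 to 1.55 in column 3, had no value in column 2, and ran from 1.54 to 2.39 with 1 tumor left out. The corresponding ranges were 1.26 to 1.72 for *Sgsh* and 1.35 to 1.90 for *Slc26a11*. The direction was the same in all alternatives run for the 3 genes, but this is no support for the rise. The genes were chosen for it and their groups did not overlap, so leaving out a tumor could not reverse it. The count columns also draw on the same libraries and largely the same reads. Of 107 member values tested between neuroblastomas under an alternative, 106 kept their side of the threshold, *Nptx1* being the exception given above. The gene lists, column 2 and 3 values and correlations without EuMycC2ko215 were added after seeing the data. Depth limits *Card14*, *Nptx1* and other genes with few reads, and 3 tumors in the *EμMyc/Casp2-/-* group limit precision.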
